A study of Sus scrofa with 4 samples.

Results

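Histone modifiers and chromatin remodellers were examined in pig (Sus scrofa) blastocysts, the hollow embryos that form before implantation. They comprised 58 of the 10022 genes named on the EMPV1 array, a porcine oligonucleotide design, and were followed through 89 of its 43794 EMPV1 probes. A probe belonged to the group when its gene symbol on the array placed it among the histone deacetylases (HDAC, 13 probes) and sirtuins (SIRT, 7 probes), the lysine acetyltransferases (KAT, 2 probes), the SET-domain genes with a SETD symbol (7 probes), the protein arginine methyltransferases (PRMT, 7 probes), Polycomb repressive complex 2 (EED and EZH1, 3 probes), the lysine demethylases (KDM, 10 probes), the chromobox readers (CBX, 5 probes), the SMARC subunits (21 probes) or the CHD remodellers (14 probes). The same symbol rule also asked for EZH2, SUZ12, KMT2 and KMT5 genes and met 0 probes with those symbols. SETDB1 and SETDB2 are counted with the SETD genes because their symbols begin with the same letters.

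Per the labels, 4 arrays each compared 10 pooled blastocysts whose oocytes had met high NEFAs, that is, non-esterified fatty acids (high NEFA), with 10 pooled blastocysts of control oocytes. Non-esterified fatty acids are the free fatty acids that circulate bound to albumin and that mobilised body fat releases. The title of the series also mentions co-culture on cells abbreviated "GCs". The abbreviation is not explained, and nothing says whether both kinds of pool shared the co-culture. The doses, the fatty acids used and the breed are not given in the sources used here. Collection on days 7 and 8 is stated for the series and not for single pools, so a pool may mix both days. The arrays are labelled biological replicates 1 to 4, but no label gives separate sows or collections, and p-values therefore measure the spread between these pools, which may be technical. The labels also name total RNA as the molecule, while their protocols describe the fragmentation of genomic DNA and its digestion by methylation-sensitive enzymes. If amplified DNA was hybridised, the ratios below are ratios of methylated fragments and not of transcripts.

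DNA is wound around histones, and enzymes add or remove acetyl and methyl groups on the histone tails. Acetyltransferases and deacetylases set how open a stretch of chromatin is, methyltransferases and demethylases write and erase marks of active or silent genes, and chromobox proteins bind such marks. Remodellers of the SWI/SNF, ISWI and CHD kinds use ATP to slide or evict nucleosomes. In early mammalian embryos this machinery takes part in the reset of the parental genomes and in the first split between trophectoderm and inner cell mass.

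With the dyes as labelled, no member probe differed between high NEFA and control pools past the threshold of limma, a Benjamini-Hochberg adjusted p of 0.05. The smallest adjusted p was 0.766, against 0% called among all 24505 probes tested, where the smallest was 0.0949. Of the 61 member probes tested, in 45 genes, 4 had an unadjusted p under 0.05, which is 6.56% beside 6.41% of all probes. The 2 with positive ratios of high NEFA over control were SETDB1 and CHD1L, beside 3.17% of all probes on that side, and the 2 with negative ratios were HDAC10 and SMARCC2, beside 3.24%. The fitted log2 ratios ran from -0.48 to 0.32, 30 above 0 and 31 below, with a median of -0.01 for members and -0.01 for all tested probes. In pooled whole embryos, fewer cells of a type and less RNA per cell cannot be told apart.

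The precision bounds these differences for the processing used and the dyes as labelled. The median half-width of the 95% interval was 0.30 on the log2 scale. The interval lay within 1.5-fold in either direction for 52 of the 61 tested probes and within 2-fold for all 61. Over all 24505 tested probes, 21535 and 24389 met these bounds. The intervals do not cover the choice of processing, as mean in place of median pixel intensities moved a member log2 ratio by up to 0.39. Among members 0 had a fitted ratio of 1.5-fold or more, where 0.371% of all tested probes did. The median size of the fitted log2 ratio, without its sign, was 0.10 for members and 0.11 for all probes.

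**Figure D1:**
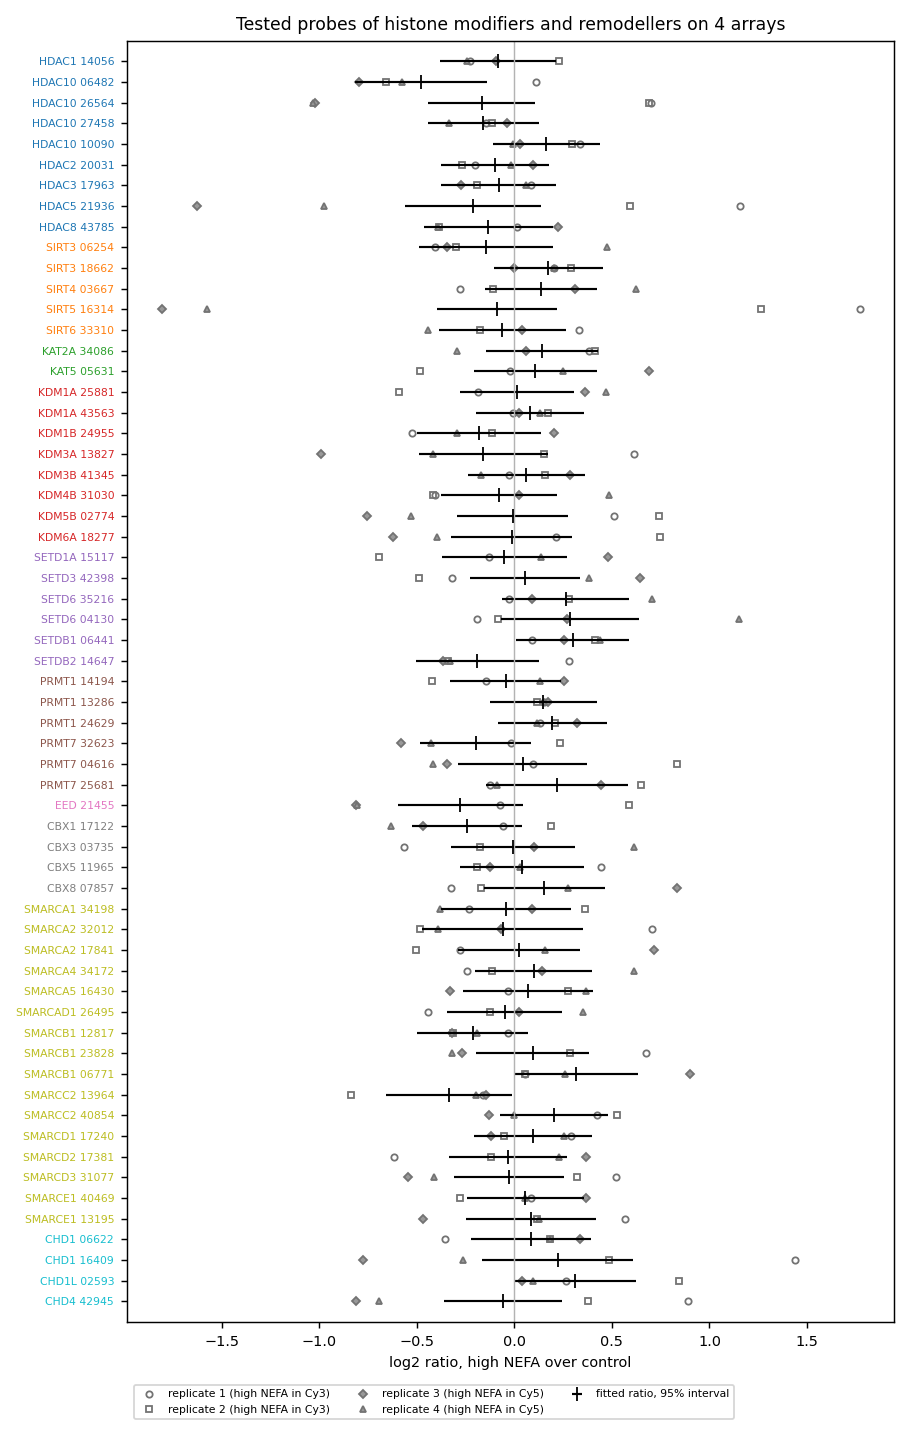
Log2 ratio of high NEFA over control (horizontal axis) for each of the 61 tested member probes (rows, by family), with open and filled symbols for the 4 arrays and a black mark with a bar for the fitted ratio and its 95% interval. All but 4 of the 61 intervals cross 0, and symbols of replicates 1 and 2 often lie on the other side of 0 from those of replicates 3 and 4.

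Ratios of single arrays followed the dye orientation. By the labels, high NEFA pools carried Cy3 on replicates 1 and 2, and Cy5 on replicates 3 and 4. Across tested probes, log2 ratios turned to high NEFA over control correlated at 0.46 between replicates 1 and 2 and at 0.62 between replicates 3 and 4, but at -0.51 to -0.50 between arrays of opposite orientation. Among the members these correlations were 0.53, 0.72 and -0.70 to -0.45. They are correlations across probes, given as a description. A dye effect shared by all 4 arrays and dyes that were not exchanged as labelled cannot be told apart from these values. Every ratio given here rests on the labelled dyes, with a separate dye term in the fit. Had the dyes not been exchanged, the dye term would hold the difference between the pools, with its direction unknown, and the fitted ratio would not.

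Of the 61 tested members, 26 (42.6%) had 1 sign on replicates 1 and 2 and the opposite sign on replicates 3 and 4, beside 41.6% of all tested probes. A further 9 members (14.8%) had the same sign on all 4 arrays, beside 7.82% of all probes. Of the 61, 6 (9.84%) were positive throughout, beside 3.76% of all probes, and 3 (4.92%) negative throughout, beside 4.06%. PRMT1 supplied 2 of the 6, and the excess over the array at large was not tested. The dye term itself passed an adjusted p of 0.05 in limma for 11 members (18.0%), beside 22.8% of all probes, and 10 of the 11 were brighter in Cy3. The count of 0 members past the threshold for high NEFA over control thus holds only with the dyes as labelled. The clearest case was SIRT5, a mitochondrial deacylase, on probe EMPV1_16314. Its normalized intensity was 952, 802, 250 and 279 in the high NEFA pools of replicates 1 to 4, against 279, 335, 874 and 832 in the control pools. Whichever pool carried Cy3 was the brighter on every array, and the groups overlapped fully. The log2 ratios were 1.77, 1.26, -1.81 and -1.58, which left a fitted ratio of -0.09 ± 0.14 (SE, n = 4 arrays) and a dye term of -1.60.

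**Figure D2:**
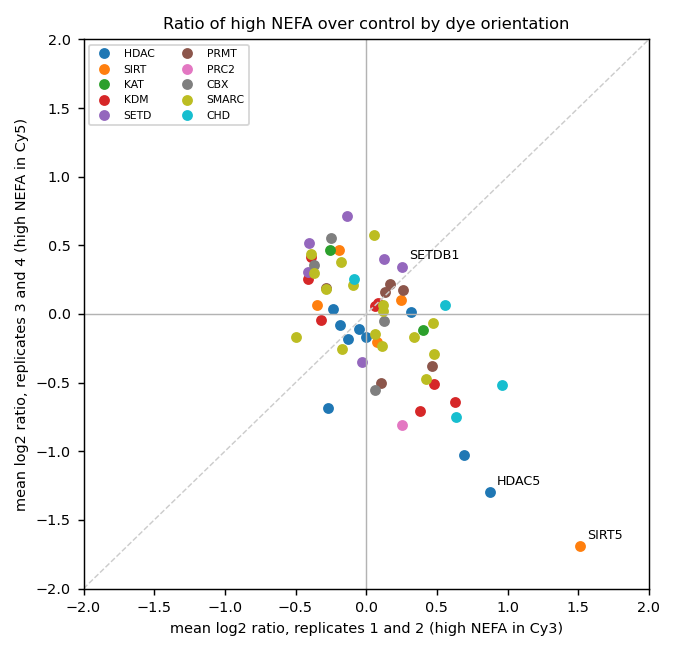
Mean log2 ratio of high NEFA over control on replicates 1 and 2, with high NEFA in Cy3 (horizontal axis), against that on replicates 3 and 4, with high NEFA in Cy5 (vertical axis), with 1 point per tested member probe coloured by family. Points spread from the upper left to the lower right, with SIRT5 and HDAC5 farthest to the lower right, and few lie on the dashed line of equal ratios.

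The material carried markers of the labelled embryo stage. Of 8 trophectoderm markers on the array, 7 were tested and 6 lay above background in every channel measurement, namely ELF5, GATA2, GATA3, TEAD4, TFAP2A and TFAP2C. Of 5 inner cell mass markers on the array, only LIN28A and UTF1 did so. All 3 primitive endoderm markers on the array, FOXA2, GATA6 and PDGFRA, did so as well. A marker was counted by its best probe, and 36.3% of single probes with a gene symbol lay above background throughout. The summed intensity of the tested trophectoderm markers was 50174 to 63137 in high NEFA pools and 41708 to 62993 in control pools. For the inner cell mass it was 1345 to 1839 in high NEFA pools and 1064 to 1507 in control pools. Of 12 granulosa cell markers, 5 were on the array and AMH and FST lay above background in every measurement, with sums of 2117 to 4151 in high NEFA pools and 1849 to 3508 in control pools. For the primitive endoderm the sums were 5411 to 7425 in high NEFA pools and 4483 to 7080 in control pools. Of 11 oocyte markers on the array, GDF9, MOS, ZP2 and ZP4 lay above background in every measurement and BMP15 in none, with sums of 2151 to 2739 in high NEFA pools and 2324 to 3147 in control pools. Within arrays, the summed level was higher in the high NEFA pool on 4 of 4 arrays for trophectoderm and for inner cell mass, on 3 for primitive endoderm and for granulosa cells, and on 1 for oocyte markers. In limma 0 markers passed the adjusted threshold. At an unadjusted p under 0.05, met by 6.41% of all genes, there were 3 of 7 trophectoderm, 2 of 4 inner cell mass, 0 of 3 primitive endoderm, 1 of 4 granulosa cell and 1 of 8 oocyte markers. Ratios lay above 0 for 6 of 7 trophectoderm markers (median 0.12) and 3 of 4 inner cell mass markers (median 0.25), and below 0 for 6 of 8 oocyte markers (median -0.17). The part of these cell types in the member ratios was not tested.

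Member probes were seen above background more often than the array at large. Above background means a foreground over the mean plus 2 SD of the negative controls in the same channel of the same array, and 8 channel measurements exist per probe. All 8 were above background for 45 member probes (50.6%), beside 31.6% of all probes and 36.3% of probes with a gene symbol. None was for 10 member probes (11.2%), beside 17.9% of all probes. The 28 member probes above background in fewer than 4 measurements were not tested. High NEFA pools had 63, 65, 55 and 55 member probes above background on replicates 1 to 4, against 60, 57, 71 and 65 in control pools. The pool in Cy3 had the higher number on every array. The same held over all probes, so this pattern was not particular to the members. Of all probes, 57.00%, 58.52%, 49.95% and 50.16% were above background in high NEFA pools of replicates 1 to 4. In control pools the shares were 51.11%, 48.96%, 60.15% and 60.29%.

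**Figure D3:**
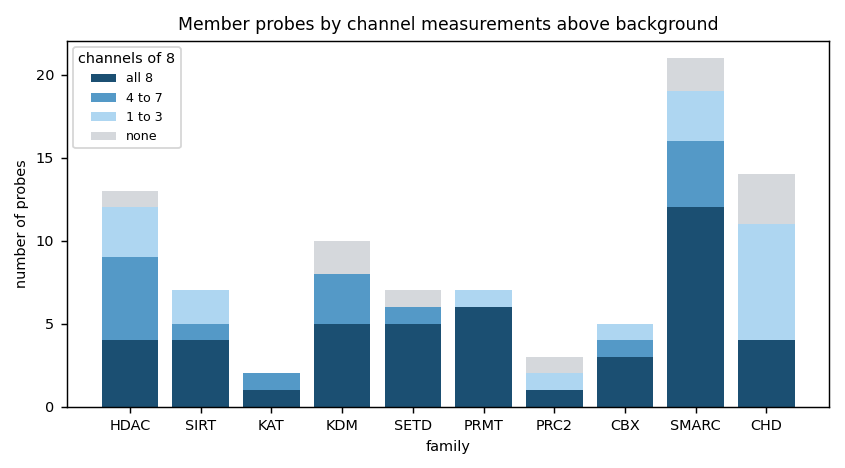
Number of member probes (vertical axis) in each family (horizontal axis), stacked by how many of the 8 channel measurements lay above background. Above background throughout were 6 of 7 PRMT, 5 of 7 SETD, 3 of 5 CBX, 4 of 7 SIRT and 12 of 21 SMARC probes, whereas 10 of 14 CHD probes were above background in fewer than 4 measurements.

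Both acetyltransferase genes were measured, and neither differed beyond the spread between arrays. KAT5, the catalytic subunit of the NuA4 complex, gave normalized intensities of 17384, 12169, 14733 and 17550 in high NEFA pools on probe EMPV1_05631, against 17644, 17026, 9142 and 14769 in control pools. Intensities share a scale only within an array, so each pool is read against the other pool of its array, and the overlap of groups is a description. KAT5 was higher in high NEFA on replicates 3 and 4 only, with a fitted log2 ratio of 0.11 ± 0.14 (SE). KAT2A, the acetyltransferase of the SAGA complex, had log2 ratios of 0.38, 0.41, 0.06 and -0.29 on probe EMPV1_34086 and a fitted value of 0.14 ± 0.13. Of its high NEFA pools 3 of 4 were above background, and of its control pools 2 of 4.

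Of the 9 tested HDAC probes, 8 had ratios below 0, with a median of -0.13, and 4 of the 9 belong to HDAC10. Over all tested probes, 12694 of 24505 had ratios below 0, and the difference from that share was not tested. HDAC10 is a class II deacetylase known in human cells as a polyamine deacetylase. Its probe EMPV1_06482 had normalized intensities of 321, 163, 221 and 267 in high NEFA pools, against 297, 257, 383 and 397 in control pools. High NEFA was the dimmer pool on 3 of 4 arrays, the ranges overlapped, and only 2 of 4 high NEFA pools were above background against 4 of 4 control pools. The fitted log2 ratio was -0.48 ± 0.15 (SE; 95% interval -0.82 to -0.14; adjusted p = 0.766), the lowest among the members. Without replicate 2 it was -0.29, and with mean in place of median pixel intensities it was -0.09.

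Other HDAC10 probes did not give the same value. EMPV1_10090 had log2 ratios of 0.33, 0.30, 0.03 and -0.01 and a fitted 0.16 ± 0.12. EMPV1_27458 was below 0 on all 4 arrays, at -0.15, -0.12, -0.04 and -0.34, with a fitted -0.16 ± 0.13. EMPV1_26564 followed the dyes, at 0.70, 0.69, -1.02 and -1.03, with a fitted -0.17 ± 0.12. HDAC10 was the only gene among 11 with several tested probes whose 95% intervals did not all overlap. Its remaining 2 probes, EMPV1_17937 and EMPV1_33346, were above background in 3 of 8 measurements each and were not tested.

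The class I deacetylases HDAC1, HDAC2 and HDAC3 are catalytic subunits of the main corepressor complexes. Together with HDAC8, also of class I, they had fitted log2 ratios from -0.13 to -0.08. HDAC1 gave 2820, 4344, 3401 and 3800 in high NEFA pools on EMPV1_14056, against 3303, 3713, 3626 and 4497 in control pools, and a fitted log2 ratio of -0.08 ± 0.13. HDAC2 gave 3092, 2422, 3776 and 4460 in high NEFA pools on EMPV1_20031, against 3561, 2916, 3530 and 4519 in control pools, and a fitted -0.10 ± 0.12. Both were above background in every measurement and both overlapped between groups. HDAC3, which works with the NCOR corepressors, had a fitted -0.08 ± 0.13, and HDAC8 -0.13 ± 0.15. They were above background in 7 and 5 of 8 measurements. HDAC5, a class IIa enzyme that shuttles between nucleus and cytoplasm, had ratios of 1.16, 0.59, -1.63 and -0.97 with a dye term of -1.09, and its fitted value was -0.21 ± 0.16. HDAC9 was above background in 0 of 8 measurements and HDAC11 in 2, so neither was tested.

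Sirtuins are deacylases that use NAD+, and 3 of their 4 tested genes act mainly in mitochondria. SIRT3, the main mitochondrial deacetylase, had 2 tested probes of opposite sign. EMPV1_18662 had log2 ratios of 0.20, 0.29, 0.00 and 0.20, with a fitted 0.17 ± 0.12, and EMPV1_06254 had -0.40, -0.30, -0.35 and 0.47, with a fitted -0.14 ± 0.15. Without replicate 3 the second probe's fitted value was 0.06. SIRT4 had a fitted 0.14 ± 0.13, and SIRT6, a nuclear deacetylase, -0.06 ± 0.15. SIRT1 and another SIRT3 probe were above background in 1 and 3 of 8 measurements and were not tested.

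SETDB1 had the highest fitted ratio among the methyltransferase probes. It silences retroelements by methylating histone H3. On EMPV1_06441 the normalized intensities were 2706, 2456, 2395 and 3069 in high NEFA pools, against 2541, 1846, 2011 and 2266 in control pools. High NEFA was the brighter pool on all 4 arrays, although the lowest high NEFA value lay below the highest control value. The log2 ratios were 0.09, 0.41, 0.25 and 0.44, and the fitted ratio was 0.30 ± 0.13 (SE; 95% interval 0.01 to 0.59; adjusted p = 0.766). With mean pixel intensities it was 0.14.

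Across the SETD symbols, SETDB1 included, 4 of 6 tested probes lay above 0, with a median of 0.16. SETD6, which methylates the NF-kappaB subunit RELA, had fitted ratios above 0 on both probes. They were 0.29 ± 0.16 on EMPV1_04130 and 0.26 ± 0.15 on EMPV1_35216. Array ratios of EMPV1_04130 were -0.19, -0.09, 0.27 and 1.15, so its sign followed the dye orientation. Those of EMPV1_35216 were -0.03, 0.28, 0.09 and 0.71. Replicate 4 gave the highest ratio on both, 1.15 and 0.71. Without it the values were 0.07 and 0.11, without replicate 3 they were 0.51 and 0.42, and with mean pixel intensities 0.07 and 0.02. SETDB2, a relative of SETDB1, had ratios of 0.28, -0.34, -0.37 and -0.33 and a fitted -0.19 ± 0.14. SETD1A, a methyltransferase of active promoters, had -0.05 ± 0.14, and SETD1B was above background in 0 of 8 measurements. SETD3, an actin methyltransferase, had 0.05 ± 0.13 and was the only member brighter in Cy5 past the dye threshold.

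Polycomb repressive complex 2, which writes a repressive methyl mark on histone H3, was represented by 1 tested probe. EED, the subunit that reads that mark, had intensities of 2640, 1885, 1144 and 1917 in high NEFA pools on EMPV1_21455, against 2782, 1254, 2010 and 3356 in control pools. It was lower in high NEFA on 3 of 4 arrays, with log2 ratios of -0.08, 0.59, -0.81 and -0.81. The fitted ratio was -0.28 ± 0.14 (SE; adjusted p = 0.766), with a dye term of -0.53, and it was -0.11 without replicate 1, -0.44 without replicate 2 and -0.07 with mean pixel intensities. A second EED probe, EMPV1_07450, was above background in 0 of 8 measurements, and EZH1, a catalytic subunit, in 2 of 8.

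Arginine methyltransferases were the family with the largest share of probes above background in every measurement, 6 of 7. The seventh, for PRMT3, was above background in 3 of 8 and was not tested. PRMT1, the main enzyme of asymmetric dimethylation, had 2 probes whose ratios were positive on all 4 arrays. On EMPV1_13286 its intensities were 1323, 1765, 2105 and 1940 in high NEFA pools, against 1192, 1626, 1870 and 1746 in control pools. High NEFA was brighter on each array by a nearly constant step, with log2 ratios of 0.15, 0.12, 0.17 and 0.15, while the pools of different arrays overlapped between groups. The fitted ratio was 0.15 ± 0.12 (SE; 95% interval -0.13 to 0.42), with an error that moderation draws largely from the other probes. EMPV1_24629 had 0.13, 0.21, 0.32 and 0.12, with a fitted 0.19 ± 0.12, whereas the third PRMT1 probe, EMPV1_14194, had -0.05 ± 0.13. With mean pixel intensities the PRMT1 values were 0.07, 0.06 and 0.04 in the same order. PRMT7, a monomethylating enzyme, had fitted ratios of 0.22 ± 0.16, 0.04 ± 0.15 and -0.20 ± 0.13 on EMPV1_25681, EMPV1_04616 and EMPV1_32623. The first was 0.41 without replicate 1, 0.02 without replicate 2, 0.08 without replicate 3 and 0.01 with mean pixel intensities.

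The demethylases lay closest to 0, with 8 tested probes between -0.18 and 0.08 and a median of -0.01. KDM1B, a flavin-dependent demethylase needed in mouse oocytes for maternal imprints, had the lowest ratio, -0.18 ± 0.14, from array values of -0.53, -0.11, 0.20 and -0.29. Its relative KDM1A had 0.08 ± 0.12 on EMPV1_43563 and 0.01 ± 0.13 on EMPV1_25881. In 5 of the 8 the sign followed the dye orientation. KDM5B, which removes an active mark, had intensities of 885, 1347, 728 and 777 in high NEFA pools, against 620, 806, 1230 and 1123 in control pools, and a fitted -0.01 ± 0.13. KDM6A, which removes the Polycomb mark, had -0.01 ± 0.14, and KDM3A -0.16 ± 0.15 on its tested probe. KDM3B had 0.06 ± 0.13 and KDM4B -0.08 ± 0.13. KDM2A and a second KDM3A probe were above background in 0 of 8 measurements.

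The chromobox readers comprise heterochromatin proteins (CBX1, CBX3, CBX5) and Polycomb proteins (CBX7, CBX8). CBX3 on EMPV1_03735 had intensities of 4030, 2854, 4565 and 6153 in high NEFA pools, against 5962, 3226, 4259 and 4017 in control pools, with a fitted log2 ratio of -0.01 ± 0.14. CBX1 had -0.24 ± 0.13 (SE; 95% interval -0.53 to 0.04), and its value was -0.01 with mean pixel intensities. For CBX1, 2 of 4 high NEFA pools and 3 of 4 control pools lay above background. CBX5 had 0.04 ± 0.14 and CBX8 0.15 ± 0.14. CBX8 moved to -0.01 without background correction. CBX7 was above background in 1 of 8 measurements.

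SWI/SNF complexes hold 1 of the ATPases SMARCA4 and SMARCA2 on a core that includes SMARCB1, SMARCC1 or SMARCC2, SMARCD and SMARCE1 subunits. Of 16 tested SMARC probes, 9 lay above 0 and 7 below, with a median of 0.04. SMARCC2, a scaffold subunit, had intensities of 220, 177, 287 and 243 in high NEFA pools on EMPV1_13964, against 245, 316, 317 and 278 in control pools. High NEFA was the dimmer pool on all 4 arrays, the ranges overlapped, and 1 of 4 high NEFA pools lay above background against 4 of 4 control pools. The fitted log2 ratio was -0.33 ± 0.14 (SE; 95% interval -0.66 to -0.01; adjusted p = 0.766). Array ratios were -0.16, -0.84, -0.15 and -0.19, so replicate 2 stood apart. Without it the value was -0.17, without replicate 1 it was -0.50, and with mean pixel intensities it was -0.04. A second SMARCC2 probe, EMPV1_40854, had a fitted 0.20 ± 0.12. Its array ratios were 0.42, 0.52, -0.13 and -0.005, so its sign followed the dye orientation.

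SMARCB1, a tumour suppressor and core subunit, had the highest member ratio and also a negative one. EMPV1_06771 had intensities of 262, 324, 346 and 284 in high NEFA pools, against 252, 312, 185 and 238 in control pools. Its log2 ratios of 0.05, 0.05, 0.90 and 0.26 were all positive, with replicate 3 the highest, and the fitted value was 0.32 ± 0.14 (SE; 95% interval -0.00 to 0.63). Without replicate 3 it was 0.16, and with mean pixel intensities 0.07. EMPV1_12817 had intensities of 1027, 921, 1065 and 1165 in high NEFA pools, against 1050, 1145, 1328 and 1332 in control pools. It was lower in high NEFA on all 4 arrays, with a fitted -0.21 ± 0.13. EMPV1_23828 had 0.09 ± 0.13.

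The ATPases themselves were near equality. SMARCA4, also called BRG1, had 0.10 ± 0.13, and SMARCA2, also called BRM, had 0.02 ± 0.14 on EMPV1_17841 and -0.06 ± 0.19 on EMPV1_32012. SMARCA5, the ISWI ATPase, had 0.07 ± 0.15. SMARCE1 had 0.09 ± 0.15 and 0.06 ± 0.13 on its tested probes, and SMARCD1, SMARCD2 and SMARCD3 had 0.09, -0.03 and -0.03. SMARCA1, another ISWI ATPase, had -0.04 ± 0.15 and SMARCAD1 -0.05 ± 0.13. SMARCC1 was above background in 1 of 8 measurements and was not tested, nor were single further probes of SMARCA2, SMARCC2, SMARCD1 and SMARCE1, at 3, 0, 3 and 0 of 8.

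CHD1L, a remodeller that is recruited to DNA damage by poly(ADP-ribose), had the only CHD probe with an unadjusted p under 0.05. On EMPV1_02593 its intensities were 526, 434, 509 and 382 in high NEFA pools, against 437, 242, 495 and 358 in control pools. High NEFA was brighter on all 4 arrays, with log2 ratios of 0.27, 0.84, 0.04 and 0.10, and the groups overlapped. The fitted ratio was 0.31 ± 0.14 (SE; 95% interval 0.00 to 0.62; adjusted p = 0.766). Without replicate 2 it was 0.17, and with mean pixel intensities 0.11 ± 0.03 (SE).

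CHD4, the ATPase of the NuRD complex, was bright and followed the dyes. It gave 6230, 4675, 3564 and 3524 in high NEFA pools on EMPV1_42945, against 3360, 3597, 6258 and 5698 in control pools, with a fitted -0.06 ± 0.14 and a dye term of -0.69. CHD1, a remodeller known for open chromatin in mouse embryonic stem cells, had 0.22 ± 0.17 on EMPV1_16409, from array ratios of 1.44, 0.49, -0.78 and -0.26 and with a dye term of -0.74. That value was -0.02 without replicate 1, 0.46 without replicate 2 and 0.55 with the authors' ratios. CHD1 had 0.09 ± 0.14 on EMPV1_06622, and 2 further CHD1 probes were at 2 of 8 measurements each. All 5 CHD2 probes and the single probes of CHD5, CHD6 and CHD7 were above background in fewer than 4 measurements and were not tested. CHD7 was above background in 2 of 4 high NEFA pools and 0 of 4 control pools. CHD1 on EMPV1_24086 had the reverse, 0 of 4 high NEFA pools and 2 of 4 control pools. Among all member probes, 3 were above background only in high NEFA pools and 5 only in control pools.

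Probes of the same gene were set side by side. The median size of a member log2 ratio was 0.10, below the median SE of 0.14. The SE reflects the spread between arrays and not between probes, and the cause of differing signs between probes was not tested. Several probes existed for 15 genes and several tested probes for 11. The fitted signs differed between probes in 7 of the 11, namely HDAC10, PRMT1, PRMT7, SIRT3, SMARCA2, SMARCB1 and SMARCC2. They were the same in CHD1, KDM1A, SETD6 and SMARCE1. Of the 4 probes with an unadjusted p under 0.05, those of HDAC10 and SMARCC2 had another tested probe of the same gene with a positive fitted ratio. For SMARCC2 the array signs of that other probe followed the dye orientation. SETDB1 and CHD1L had no second probe.

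**Figure D4:**
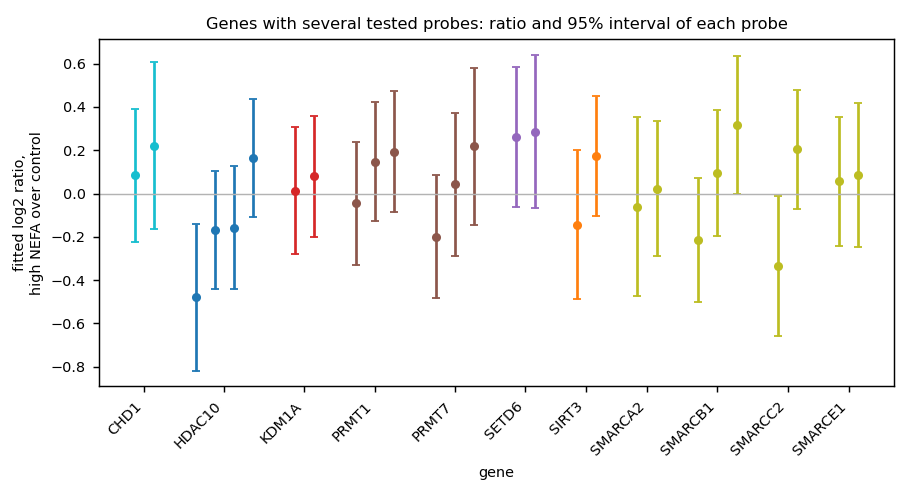
Fitted log2 ratio of high NEFA over control (vertical axis) with its 95% interval for every tested probe of the 11 genes with several tested probes (horizontal axis). Intervals of HDAC10 are the only ones that do not all overlap, and in 7 genes points lie on both sides of 0.

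The choice of mean or median pixels moved the member ratios. It was changed for the spot and its local background together, so their shares cannot be told apart. With mean in place of median pixel intensities, 43 of 61 members kept their sign and the median size of the log2 ratio was 0.04, against 0.10 with median pixels. The SE changed too, from 0.14 to 0.03 for CHD1L, 0.13 to 0.06 for SETDB1 and 0.15 to 0.04 for HDAC10 on EMPV1_06482. For SMARCC2 on EMPV1_13964 it went from 0.14 to 0.03, but for EED it stayed at 0.14. A smaller ratio with mean pixels is thus not by itself a weaker difference. Of the 4 probes with an unadjusted p under 0.05 in limma, 1 kept it with mean pixels, that of CHD1L. Signs were kept in 58 of 61 without background correction, in 58 with the authors' ratios, in 60 with median centring and in 46 to 51 with 1 array left out. Leaving out 1 array moved 21 to 26 of the 61 ratios by more than 0.1. The cause of the smaller ratios was not tested.

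**Figure D5:**
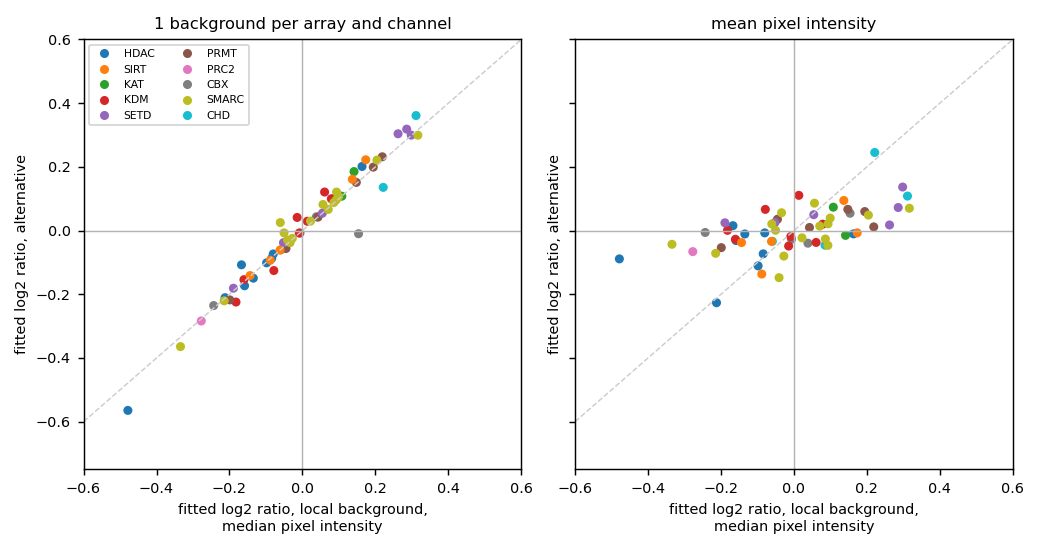
Fitted log2 ratio of each tested member probe under alternative settings (vertical axes, 1 panel per setting) against the ratio from median pixel intensities with local background (horizontal axes), coloured by family. With 1 background per array, 1 of 61 probes moved by more than 0.1, and with mean pixel intensities 29 of 61 did, most of them towards 0, while HDAC5 and CHD1 on EMPV1_16409 stayed close to the dashed line of equality.

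Partners of these enzymes were examined as a list of their own. From a list of 137 subunits, readers and histone chaperones outside the symbol rule, 70 genes were tested by their brightest probe, and their median log2 ratio was 0.01, with 37 above 0 and 33 below. In limma 0 passed the adjusted threshold and 3 (4.29%) had an unadjusted p under 0.05, beside 6.41% of 6224 genes. DAXX, a chaperone that deposits histone variant H3.3, had log2 ratios of -0.64, -0.48, -0.60 and -0.00 and a fitted -0.43 ± 0.14 (adjusted p = 0.766), which was -0.28 without replicate 3 and -0.05 with mean pixel intensities. BAZ2A, a subunit of the complex that silences ribosomal genes, had -0.02, 0.71, 0.59 and 0.42 and a fitted 0.42 ± 0.15 (adjusted p = 0.766), which was 0.24 without replicate 2 and 0.17 with mean pixel intensities. ING3, a NuA4 subunit, had -0.02, 0.25, -0.69 and -0.71 and a fitted -0.30 ± 0.13, below 0 on 3 of 4 arrays. PBRM1 of SWI/SNF had -0.32 ± 0.14, but -0.03 without background correction, -0.05 with 1 background per array and 0.17 with mean pixel intensities. The acetyltransferase CREBBP had 0.26 ± 0.15. The remaining named partners were the chaperones ASF1A, at 0.29 ± 0.13, and NAP1L4, at 0.22 ± 0.13, and the remodeller subunit CHRAC1, at -0.25 ± 0.12. For NAP1L4 and CHRAC1 the sign followed the dye orientation. Their array ratios were -0.13, -0.43, 0.71 and 0.72 for NAP1L4 and -0.74, -0.55, 0.11 and 0.20 for CHRAC1.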

How the data were processed

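Per the file headers, the authors' scanner output gives spot and local background intensity in Cy3 and Cy5 as medians and means over pixels, before any subtraction or normalization, and marks spots to ignore. The authors' series matrix holds deposited log2 ratios, 1 column per array, with scale and direction not stated. Its column medians were 0.0027, 0.0083, 0.0086 and 0.016, it correlated at 0.80 to 0.81 with the Cy5 over Cy3 ratios computed here, and it served as an alternative only, turned by the labelled dyes. Other columns of spot position and probe name were used as given. The submitters' processing notes name limma without a version, and no source used here gives the image software.

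Each array had 45220 spots, 153 of them negative controls, and 60, 21, 17 and 17 spots marked to ignore, which were left out and held 0 member probes. No member spot was saturated, with a highest foreground of 18607. Median intensities were background-corrected (normexp, offset 50) and normalized by loess within arrays with control spots at weight 0 (limma 3.58.1, statmod 1.5.0, R 4.3.3). Normalized intensities share a scale only within an array and probe. Probes above background in at least 4 of 8 channel measurements were tested, which left 61 of 89 member probes. limma fitted an exposure coefficient whose sign followed the high NEFA dye, with a dye intercept, and p-values were two-sided and adjusted by Benjamini-Hochberg over 24505 probes. There were 2 residual degrees of freedom, to which moderation added 7.84. The number of arrays limits the precision.

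Spot numbers linked probes to the gene symbols of the platform, with 1 symbol for 13146 probes and none for 30648, and a RefSeq table updated 218 older symbols. The sources used here name no genome build. The members, the partner list, the marker lists, the rule for named probes and the tests were chosen with earlier results of these data known. The rule named up to 12 probes per direction of smallest unadjusted p with 1 sign on all 4 arrays, the smallest p of each family, every Polycomb and class I deacetylase probe, probes of a gene whose signs differ, and up to 4 partners per direction. The other members were named after their values were seen, to account for every gene. Alternatives were no background correction, 1 background per array and channel, an offset of 16, mean pixels, median centring, Aquantile scaling, other filters, no dye term, the authors' ratios and each array left out. Current gene symbols and 1 probe per gene were added after seeing the data.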

Additional observations from a re-analysis of the deposited data

Results flagged for a closer look

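Among 37 named probes, 2 had an array far from the other 3, measured by its gap to the nearest value over the whole range. SIRT3 on EMPV1_06254 had a log2 ratio of 0.473 on replicate 4, with the other arrays between -0.40 and -0.30. SMARCC2 on EMPV1_13964 had -0.836 on replicate 2, with the others between -0.19 and -0.15. Chance marks about 1 in 20 groups of 4 independent values from 1 normal distribution. These ratios still hold the dye effect, so the share that chance marks here is not known.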

How the results depend on the processing

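The median member ratio moved by less than its spread between arrays under every alternative run, and 0 members passed the adjusted threshold in limma in any of them, with a smallest adjusted p of 0.0769 for HDAC10 without replicate 1. Over all probes, calls numbered 4 with an offset of 16, 5 without the filter, 3 with the authors' ratios and 21 to 78 with 1 array left out. Members at an unadjusted p under 0.05 numbered 4. They became 8 of 89 without the filter (7.22% of all probes there) and 1 of 45 with all 8 channels required (5.45%). With 1 probe per gene there were 2 of 45 genes (4.44%), beside 6.41% of all genes by their brightest probe. Current gene symbols added KAT8, with an unadjusted p of 0.0443 in limma. There was 1 without the dye term (0.820%), 2 with the authors' ratios (5.51%) and 2 to 8 with 1 array left out (4.95% to 9.70%). Without replicate 2, the 2 were CHD1 and EED and 0 of the 4 remained. Partner genes at that level numbered 3. They became 6 without background correction (6.12% of all probes), 12 with mean pixels (9.30%) and 5 without the filter (7.22%). There was 1 without the dye term (0.820%), and 2 to 5 with 1 array left out (4.95% to 9.70%). These shares are over probes, while partners are counted as genes.

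The sign of a named ratio turned in 12 of 359 values outside the left-out arrays. SMARCA2 on EMPV1_32012 became 0.021 without background correction and 0.025 with 1 background per array. With mean pixels it became 0.021, HDAC10 became -0.010 on EMPV1_10090 and 0.015 on EMPV1_26564, KAT2A -0.015, KDM1B 0.00071, PRMT1 on EMPV1_14194 0.035, SIRT3 on EMPV1_18662 -0.0072, SMARCA2 on EMPV1_17841 -0.023, SMARCB1 on EMPV1_23828 -0.047 and PBRM1 0.17. With 1 array left out, signs turned within these ranges: HDAC1 -0.20 to 0.029, HDAC3 -0.16 to 0.0039, HDAC8 -0.29 to 0.020, PRMT1 on EMPV1_14194 -0.11 to 0.024, PRMT7 on EMPV1_04616 -0.14 to 0.23, SIRT3 on EMPV1_06254 -0.35 to 0.061, SMARCA2 -0.12 to 0.16 on EMPV1_17841 and -0.36 to 0.24 on EMPV1_32012, and SMARCB1 on EMPV1_23828 -0.0040 to 0.19. The cause was not tested. The fit on ratios within arrays is itself paired, and no other pairing was run. Low signal over background limits HDAC10 on EMPV1_06482 and SMARCC2 on EMPV1_13964, at 6 and 5 of 8 channels above it.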

Other observations

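Another acetyltransferase lay outside the symbol rule because the array carries its older symbol, MYST1, for the gene now called KAT8. On EMPV1_10037 its normalized intensities were 1151, 1876, 1954 and 2173 in high NEFA pools, against 1788, 2021, 2478 and 2461 in control pools. High NEFA was the dimmer pool on all 4 arrays, with log2 ratios of -0.64, -0.11, -0.34 and -0.18, and the ranges overlapped. The fitted ratio was -0.32 ± 0.14 (SE, n = 4 arrays; limma adjusted p = 0.766). KAT8 is the acetyltransferase of the MSL and NSL complexes. The probe was named after its values were seen. MYST2, now KAT7, was above background in 1 of 8 measurements and was not tested.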
